A study of Rattus norvegicus with 8 samples.

Results

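Stac2 (ENSRNOG00000004805) encodes SH3 and cysteine rich domain 2, an adaptor protein of voltage-gated calcium channels, and was followed across 8 RNA-seq libraries of rat dorsal root ganglia (DRG). It is 1 gene of the 16988 that passed a filter on low counts and of the 32623 Ensembl identifiers in the table. The gene was chosen by its rise after nerve injury in these same libraries, so its change after injury and its rank by that change are given as a description, with no test. The sexes were compared by test among naïve and among injured rats, comparisons that the choice did not rank. The interaction of sex and injury was tested too, although it is the difference between the changes in males and females that the choice ranked.

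The study asked how males and females differ in DRG gene expression after chronic constriction injury (CCI), in which the sciatic nerve is loosely ligated. Adult Sprague-Dawley rats formed 4 groups of 2 rats each, with and without CCI in either sex. Each library came from the ipsilateral L4 to L6 DRGs of 1 rat, pooled, and the ganglia of injured rats were taken on day 14. The naïve rats had no surgery, so the effect of the operation and that of the ligatures cannot be told apart, and the rats were gonadally intact, with the stage of the estrous cycle not determined.

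Total counts ranged from 39489103 to 60818457 per library. Sequencing was done in 2 batches, and the batch of each library is not given in the sources used here, so no within-batch value could be computed. Neuronal genes marked the tissue as the labels give it: the 5 pan-neuronal markers with an identifier (Uchl1, Snap25, Nefl, Nefm and Stmn2) together reached between 15605 and 26072 CPM in every library. CPM are counts relative to the size of the library, which was adjusted with TMM factors. Gene symbols were available for 11.5% of the genes tested, from tables in which the study lists genes it called on these libraries, so the change of a gene is part of why it has a name in the lists below. In whole ganglia, a change in the number of cells that express a gene and a change in its RNA per cell cannot be told apart.

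STAC proteins bind L-type voltage-gated calcium channels, the channels whose pore is formed by the Cav1 alpha1 subunits, and they weaken the calcium-dependent inactivation by which these channels close as calcium enters. Stac3 is the member of skeletal muscle, where it is required to couple excitation to contraction, whereas Stac (Stac1) and Stac2 are expressed in neurons, sensory neurons of the DRG included. The auxiliary alpha2delta and beta subunits act on the same channels by bringing them to the membrane and tuning their gating. Stac, Stac3 and the L-type alpha1 genes Cacna1s, Cacna1c, Cacna1d and Cacna1f were not analysed here.

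Stac2 was scarce in uninjured ganglia and well expressed in every injured one. In naïve males it had 49 and 56 counts, which is 0.937 and 1.03 CPM, and in naïve females it had 70 and 39 counts, or 1.48 and 0.922 CPM. In CCI males it had 1361 and 1164 counts (23.3 and 24.0 CPM), and in CCI females it had 1664 and 1624 counts (43.0 and 41.5 CPM). The 4 naïve libraries were all low, the 2 CCI males were higher and close to each other, the 2 CCI females were higher still, and no naïve value came near an injured one.

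**Figure D1:**
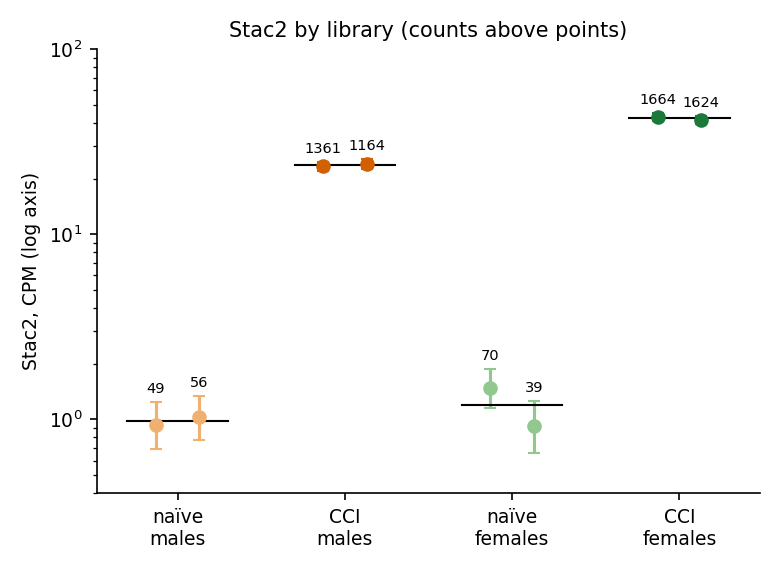
Stac2 in CPM (log axis) in each of the 8 libraries, by group, with the count above each point, the exact 95% Poisson interval of that count as error bar and the group mean as a horizontal line. All 4 naïve libraries sit below 1.5 CPM, both CCI males lie between 23 and 25 CPM and both CCI females lie above 41 CPM.

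As group means, naïve males had 0.982 ± 0.0638 CPM of Stac2 and naïve females had 1.20 ± 0.394 CPM (SD, n = 2 each). The means after CCI were 23.7 ± 0.495 CPM in males and 42.3 ± 1.03 CPM in females (SD, n = 2 each). The order of the groups was thus naïve males, naïve females, CCI males and CCI females, and the first and second in that order overlapped. The 95% Poisson interval of the lowest naïve count, 39, ran from 0.656 to 1.26 CPM, and that of the highest injured count, 1664, from 41.0 to 45.1 CPM. These intervals cover counting error alone. The coefficient of variation between the rats of a group was 32.8% in naïve females and 6.50% in naïve males, against 2.09% in CCI males and 2.43% in CCI females.

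On the log2 CPM scale, computed with a prior count of 2, Stac2 was 4.53 higher in CCI than in naïve males and 5.13 higher in CCI than in naïve females, with a mean of 4.83 over both sexes. The ratio of the mean CPM was 24.1 in males and 35.2 in females. Over all genes tested the median change was -0.0134 in males and -0.00722 in females. By this change Stac2 was the 12th of 16988 genes in males, the 13th in females and the 12th by the mean of both.

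**Figure D2:**
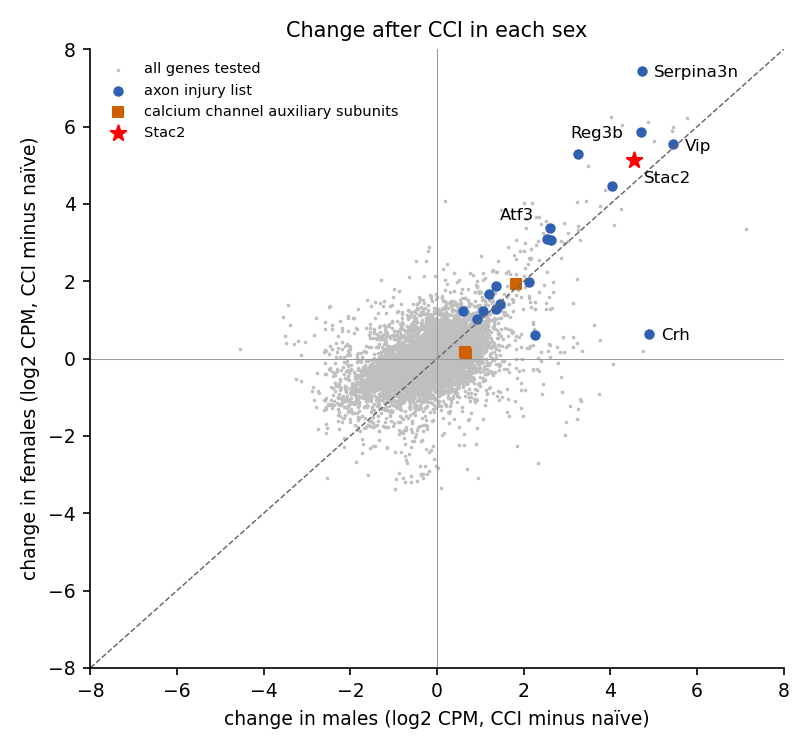
Difference in log2 CPM between CCI and naïve rats for males along the x axis and for females along the y axis, over all 16988 genes tested, with the line of equal change dashed. Stac2 (star) lies at 4.53 and 5.13, among the axon injury genes with the largest increases, whereas the calcium channel auxiliary subunits (squares) changed by less than 2.

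What set Stac2 apart from the genes ranked beside it was how much of it could be counted in naïve ganglia. Of the 11 genes ranked above it by the mean change, 10 had fewer counts in all 4 naïve libraries than the lowest Stac2 count of 39. Of the same 11 genes, 9 had a naïve library with at most 3 counts, where the size of the change depends on the prior count. The exception to the first of these statements was Reg3b, a secreted lectin made by injured sensory neurons, with 21 to 47 counts in the naïve libraries and changes of 4.70 in males and 5.86 in females.

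The 3 genes just above Stac2 were ENSRNOG00000060523 and ENSRNOG00000023892, both with 0 counts in every naïve library and without a symbol here, and Vtcn1, an immune checkpoint ligand, with 0 to 14 naïve counts. The 3 just below it were Cldn4, a tight junction claudin with 5 to 16 naïve counts and a mean change of 4.75, Il24, a cytokine with 0 to 8 naïve counts and a mean change of 4.27, and Ankrd1, a muscle ankyrin repeat protein with 11 to 21 naïve counts and a mean change of 4.25. None of these 6 genes had as many naïve counts in any library as Stac2 had in each.

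**Figure D3:**
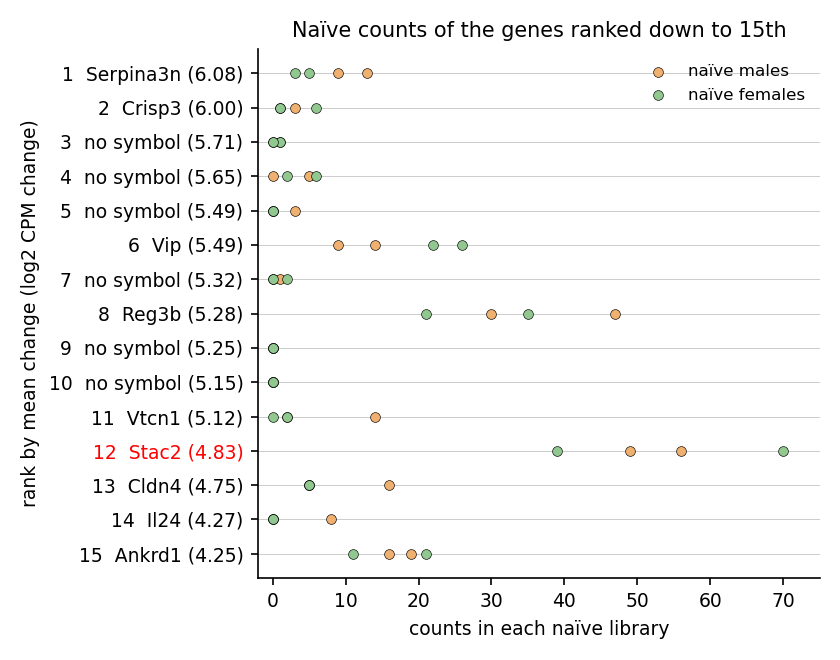
Counts in each of the 4 naïve libraries (x axis, linear) of the 15 genes with the largest mean change, in rank order, with the mean log2 CPM change in brackets. Points with equal counts overlap. The 39 to 70 counts of Stac2 are the highest set, and the 21 to 47 counts of Reg3b come next.

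The rank of Stac2 therefore moved with the treatment of low counts. With a prior count of 0.5 it was the 19th gene in males, and with a prior count of 5 it was the 6th in males and the 8th in females. Among the 15040 genes with at least 10 counts in every library it was the 2nd in either sex. Among the 13083 genes whose log2 CPM averaged at least 1 it was the 3rd in either sex. That average takes in the injured libraries. In log2 CPM Stac2 had a mean of 0.0327 in naïve males and 0.276 in naïve females, both below the minimum. It thus entered this pool through its level after injury, and this rank is not independent of the change that it ranks. A log2 change of at least 4 in both sexes was reached by 12 genes, of which 3 had at least 10 counts in every naïve library.

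In the absence of injury, the sexes could not be separated by Stac2. The higher naïve female (1.48 CPM) lay above both naïve males and the lower one (0.922 CPM) lay below both, so the groups overlapped. The log2FC of naïve females against naïve males was 0.29 (SE 0.340, 95% interval -0.57 to 1.16, adjusted p = 0.621, edgeR quasi-likelihood test, Benjamini-Hochberg method over all genes). The interval reaches from a 0.672-fold to a 2.24-fold level in females, so a difference within that range is not excluded by these 4 rats. In the same comparison 0.0706% of all genes tested were called, where a call required both an adjusted p under 0.05 and a log2FC of more than 0.5 in size. Without naïve female replicate 1 the log2FC was -0.08.

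After injury, Stac2 was higher in females than in males. Both CCI females (43.0 and 41.5 CPM) lay above both CCI males (23.3 and 24.0 CPM), with a gap far wider than the spread within either group. The log2FC was 0.84 (SE 0.0705, 95% interval 0.67 to 1.01), a 1.79-fold level in females with an interval from 1.59 to 2.02 (edgeR's quasi-likelihood test, adjusted p = 0.00878). In this comparison 0.524% of all genes tested were called higher in females and 0.536% lower. By p-value Stac2 was the 41st of all genes tested, and by log2FC it was the 44th of the 89 genes called higher.

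The size of this sex difference was stable and its call was not. With each of the 4 libraries left out in turn the log2FC stayed between 0.81 and 0.87, but the adjusted p rose to 0.116 without CCI female replicate 1 and to 0.0821 without CCI female replicate 2. With 1 female left, that rat is assumed to vary as the CCI males do. The smallest 2-sided p of an exact permutation test with 2 rats a group is 0.333, so each adjusted p rests on a spread shared across genes.

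Whether CCI raised Stac2 by a different factor in females was tested with the interaction of sex and injury over all 8 libraries. The change in females exceeded that in males by 0.54 on the log2 scale (SE 0.248, 95% interval -0.04 to 1.11, unadjusted p = 0.0634, adjusted p = 0.233 by edgeR's quasi-likelihood test). The difference did not pass the threshold. The interaction term passed in 1.59% of all genes tested. The level after injury therefore differed between the sexes, whereas a difference in the change itself was not shown. With each library left out in turn the estimate lay between 0.25 (without naïve female replicate 2) and 0.93 (without naïve female replicate 1).

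Over all genes tested, 9.05% were called higher in CCI than in naïve males and 3.69% in females. The 5 pan-neuronal genes with an identifier, of 14 listed, were taken as a rough gauge of the neuronal RNA in each library. They were named through the study's lists of genes called on these libraries. A change in them was thus favoured beforehand, and they cannot measure neuronal RNA apart from that choice. Of the 5, 4 were called higher in CCI than in naïve males (median log2FC 0.63) and Stmn2, a growth-associated microtubule regulator, was called higher in females (median of the 5 genes 0.12), a call lost without naïve female replicate 2 (log2FC 0.49), CCI female replicate 1 (adjusted p = 0.0731) or CCI female replicate 2 (0.177). Their summed level was 15605 to 17207 CPM without injury and 25154 to 26072 CPM with it in males, and it was 18733 to 19634 CPM without and 19834 to 23744 CPM with injury in females. Between CCI females and CCI males all 5 had a log2FC below 0 (median -0.25), the opposite direction to Stac2. None of them was called there by edgeR or by DESeq2, and 1 had an unadjusted p under 0.05.

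Expressed relative to these 5 genes, a scaling chosen after seeing the data, Stac2 was 3.88 higher on the log2 scale after CCI in males and 4.96 higher in females. On this scale CCI females lay 1.06 above CCI males, and naïve females lay 0.03 below naïve males (log2 difference -0.03). Relative to these 5 genes, Stac2 thus also rose after CCI and was higher in CCI females than in CCI males. Of the 5 genes, 4 were themselves called higher after CCI in males, and all 5 were named through the study's lists of called genes, so the scaling carries that choice. The part of neuronal RNA in the level of Stac2 was not tested.

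Among the partners of Stac2 at the channel, 3 of 16 auxiliary subunit genes had an identifier, and all 3 rose in males, where 9.05% of all genes tested were called higher and 12.5% lower. The 3 were named through the study's lists of genes called on these libraries, so this count does not test the list. Cacna2d1, the alpha2delta-1 subunit bound by gabapentin, stood at 62.1 and 72.8 CPM in the naïve males and 246 and 230.0 CPM in the injured males, and at 74.3 and 80.4 CPM in the naïve females and 290.2 and 301 CPM in the injured females. It was high in all 4 injured rats, without overlap with the naïve rats. Its log2FC was 1.82 (SE 0.104, adjusted p = 0.00565) in males and 1.92 (SE 0.0858, adjusted p = 8.30e-05) in females by edgeR's test. It was the auxiliary subunit called in females, where 3.69% of all genes tested were called higher and 2.001% lower. Without CCI male replicate 1 no gene at all was called in males by edgeR (smallest adjusted p 0.0502, with 6494 genes at an unadjusted p under 0.05), which holds for every call in males given here.

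Cacnb4, a beta subunit, rose in males with a log2FC of 0.67 (adjusted p = 0.00661) and had a log2FC of 0.11 in females (adjusted p = 0.429). Cacna2d3, the alpha2delta-3 subunit, rose in males with a log2FC of 0.65 (adjusted p = 0.00565) and had a log2FC of 0.17 in females (adjusted p = 0.216). The increases of the auxiliary subunits in males were smaller than the change of 4.53 in Stac2. Those of Cacnb4 and Cacna2d3 lay near the median log2FC of the pan-neuronal genes, 0.63 in males and 0.12 in females. Between CCI females and CCI males none of the 3 was called by edgeR or DESeq2, and 2 had an unadjusted p under 0.05. Cacna2d1 had a log2FC of 0.32 there (adjusted p = 0.101), in the direction of Stac2. Cacnb4 had -0.30 (adjusted p = 0.0965) and Cacna2d3 had -0.16 (adjusted p = 0.343), beside a pan-neuronal median of -0.25.

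Among the other pore-forming subunits, Cacna1g (Cav3.1, T-type) was the member with an identifier, and it was not called in either sex (log2FC -0.56 in males, adjusted p = 0.127, and 0.63 in females, adjusted p = 0.353). It had an unadjusted p above 0.05 in both, and DESeq2 did not call it either.

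The STAC family is best known from excitation-contraction coupling, and 4 of 17 genes of that apparatus had an identifier. Triadin (Trdn), calsequestrin (Casq1) and the histidine rich calcium binding protein (Hrc), which belong to the calcium store of muscle, rose in CCI males by log2FC 2.18, 1.13 and 1.86 (adjusted p = 0.00565, 0.0133 and 0.00871). In CCI females Casq1 fell (log2FC -0.95, adjusted p = 0.0447). All 3 were lower in CCI females than in CCI males, with log2FC of -2.56, -2.64 and -1.49 (adjusted p = 0.0229, 0.00369 and 0.0461), opposite to Stac2. Fkbp1b, a ryanodine receptor binding protein, was not called in males (log2FC 0.44) or females (-0.03). With 1 library left out, Casq1 lost its call in females without naïve female replicate 1 (adjusted p = 0.0872), CCI female replicate 1 (0.136) or CCI female replicate 2 (0.315). In the sex comparison Trdn lost its call without CCI female replicate 1 (0.0704), and Hrc without CCI male replicate 1 (0.0540), CCI female replicate 1 (0.251) or CCI female replicate 2 (0.164). Casq1 and Hrc also lost their calls in males without CCI male replicate 2 (0.0716 and 0.0566).

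Skeletal muscle genes moved in the same way as these 3. Of 9 muscle genes with an identifier (of 24 listed), 7 rose in CCI males, where 9.05% of all genes tested were called higher. None rose in CCI females by edgeR or DESeq2. The 2 with an unadjusted p under 0.05 there were both lower: Pvalb, which was called, and Pygm, which was not (log2FC -0.36). Between CCI females and CCI males 8 of the 9 were lower in females, with a median log2FC of -3.83. In that comparison 0.536% of all genes tested were called lower. The 9 genes were named through the study's lists of genes called on these libraries, so these counts do not test the list. Their summed level was 128 to 159 CPM without injury and 239 to 254 CPM with it in males, and 161 to 207 CPM without and 98.5 to 118 CPM with injury in females. Pvalb, which large-diameter sensory neurons also express, made up much of this sum. Without it, a sum added after seeing the data, the other 8 genes reached 30.5 to 49.3 CPM without injury and 136 to 142 CPM with it in males, and 23.1 to 36.6 CPM without and 21.0 to 21.8 CPM with injury in females. Both sums were lowest in the CCI females, in which Stac2 was highest, and the part of muscle RNA in the level of Stac2 was not tested.

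Genes that neurons switch on after axon damage rose in both sexes. Of 25 axon injury response genes, 18 had an identifier, of which 17 rose in CCI males (median log2FC of the 18 genes 2.45) and 16 in CCI females (median 1.92). Over all genes tested the medians were -0.0114 and -0.0176, and 9.05% were called higher in males and 3.69% in females. The 18 have an identifier because the study listed them among genes it called on these libraries. Counts of called genes among them were thus favoured beforehand and do not test the list. Between CCI females and CCI males 6 of the 18 were higher in females by edgeR and 7 by DESeq2, and none was lower by either. Of the 18, 14 had an unadjusted p under 0.05, and 16 had a log2FC above 0. The median log2FC was 0.48, against 0.00281 over all genes tested, of which edgeR called 0.524% higher in CCI females and 0.536% lower.

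The 6 injury genes that, with Stac2, were higher in CCI females were named after their values were seen. They were Vip and Gal, which encode the neuropeptides VIP and galanin (log2FC 1.29 and 1.22, adjusted p = 0.00369 and 0.0211), Reg3b (0.96, adjusted p = 0.0159), Atf3, a transcription factor induced by axon injury (0.89, adjusted p = 0.00835), Ecel1, an endothelin converting enzyme-like protein induced in damaged neurons (0.77, adjusted p = 0.0463), and Csf1, a macrophage and microglia growth factor released by injured sensory neurons (0.59, adjusted p = 0.0422). The 0.84 of Stac2 lay within their range. Without CCI female replicate 1 the number of injury genes called fell to 2, and without CCI female replicate 2 it fell to 0, and the log2FC of the 6 genes stayed above 0.5 with each library left out. With edgeR fitted over all 8 libraries, Reg3b (adjusted p = 0.0540) and Ecel1 (0.108) were no longer called. Vgf, a neurosecretory protein precursor, rose in both sexes (log2FC 2.07 in males and 1.98 in females, adjusted p = 0.0224 and 8.91e-05) and was not called between CCI females and CCI males. Without CCI male replicate 2 its adjusted p in males was 0.0512.

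**Figure D4:**
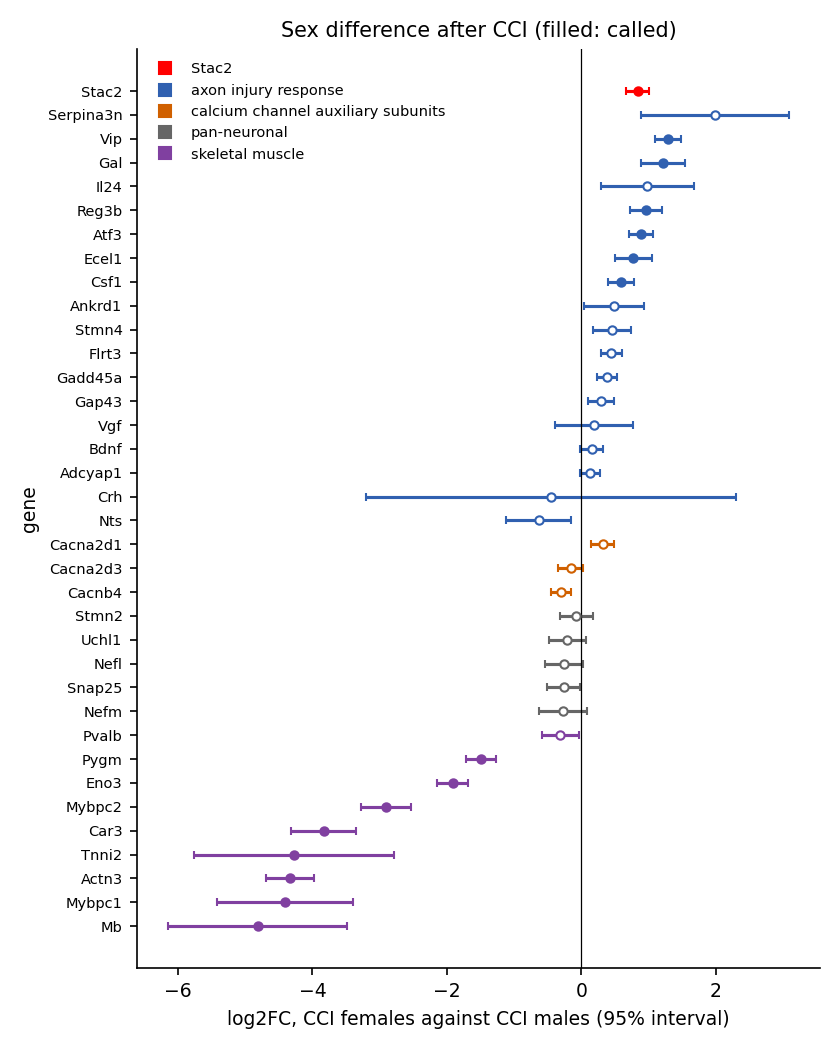
Log2FC of CCI females against CCI males with its 95% interval for Stac2 and for the named members of 4 gene lists, where filled points mark called genes. Stac2 (0.84) lies to the right of 0, as do 16 of the 18 axon injury genes, whereas the pan-neuronal genes lie slightly to the left and the skeletal muscle genes, Pvalb excepted, far to the left.

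For the change itself, the interaction of sex and injury was positive and called in Atf3 (log2FC 0.78, adjusted p = 0.0412) and Csf1 (0.64, adjusted p = 0.0496), and it was negative and called in Nts, the precursor of the neuropeptide neurotensin (-1.71, adjusted p = 0.0483). Csf1 missed the threshold with RLE scaling (adjusted p = 0.0513) and upper-quartile scaling (0.0540). With 1 library left out the adjusted p reached 0.165 for Atf3, 0.190 for Csf1 and 0.182 for Nts, and all 3 were lost without any 1 of naïve male replicate 1, both CCI males, naïve female replicate 1 and both CCI females. These 3 genes were also named after their values were seen. Stac2, with 0.54, had an estimate near that of Csf1 with a wider SE (0.248 against 0.119), and was not called.

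Genes whose level followed Stac2 most closely over the 8 libraries were ranked by Pearson's r of log2 CPM among 13082 genes whose log2 CPM averaged at least 1. As a description, r exceeded 0.95 in 426 genes and 0.99 in 16, and it was below -0.95 in 34, with a median of 0.0264. The 8 points are the same libraries for every gene, and they fall into naïve and injured rats. The 8 closest genes had r from 0.993 to 0.998, and 3 of them have a symbol: Reg3b (r = 0.995, Spearman's rho = 0.905), Atf3 (r = 0.995, rho = 0.881) and Ecel1 (r = 0.994, rho = 0.881). With the mean of each group removed, r was 0.458 for Reg3b, 0.437 for Atf3 and 0.779 for Ecel1. Over the 8 genes it ranged from 0.0799 to 0.993, with 2 rats a group.

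Being chosen by their likeness to Stac2, these genes had a pattern near its own. Atf3 went from 11.7 and 11.0 CPM to 67.7 and 70.9 CPM with injury in males, and from 12.7 and 11.8 CPM to 122 and 133 CPM in females. Ecel1 went from 1.26 and 1.06 CPM to 7.86 and 6.91 CPM in males, and from 1.82 and 1.21 CPM to 12.6 CPM in both injured females. In Atf3, Ecel1 and Reg3b the CCI females were the highest libraries and the CCI males the next, with no overlap.

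The closest gene of all, ENSRNOG00000005708, went from 10.4 and 10.8 CPM to 22.1 and 21.6 CPM in males, and from 11.8 and 11.1 CPM to 26.6 and 25.8 CPM in females (r = 0.998, rho = 0.905). It rose by much less than Stac2, with log2 changes of 1.04 in males and 1.19 in females, so a like profile did not go with a like size.

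**Figure D5:**
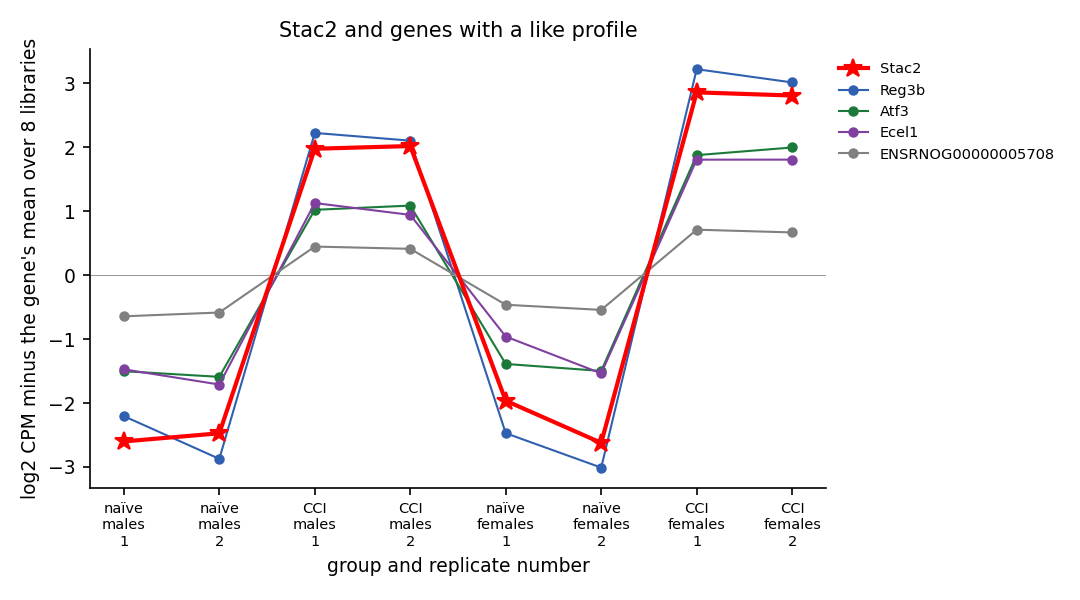
Log2 CPM of each gene minus its own mean over the 8 libraries (y axis) for Stac2 and 4 of the 8 genes with the closest profile, by group and replicate number (x axis). Every line is low in naïve rats, higher in CCI males and highest in CCI females, and the spans of Stac2 and Reg3b are the widest.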

How the data were processed

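RNA was measured in 8 libraries (2 rats in each of 4 groups). According to the paper's methods, the authors aligned strand-specific poly(A) reads to rn6 with HISAT2, removed ribosomal reads and used featureCounts to count the rest on Ensembl genes. Deposited were these raw counts, without normalization or batch correction.

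Counts were analysed in R 4.3.3 with edgeR 4.0.16 and, as an alternative, DESeq2 1.42.0. Genes were kept by filterByExpr (minimum count 10, minimum total 15) and scaled by TMM. Groups were compared by edgeR's quasi-likelihood test on the libraries concerned (the interaction on all 8, called at an adjusted p under 0.05 alone), with Benjamini-Hochberg adjustment over all genes. The SE is the log2FC divided by the square root of F. The fits were tested on simulated data. Members and lists were chosen with earlier results of these data known. The rule names Stac2, its family, L-type alpha1 genes, up to 4 called members per list by adjusted p, the 3 genes ranked above and below, and the 8 closest profiles. Beyond the calcium channel, coupling and injury lists, counts with examples are given. Symbols came from the paper's tables (1961 identifiers). Genes without an identifier and the neighbours of Stac2 in the genome were not analysed here. The values of 1 list gene are not reported here. Alternatives were other scalings, prior counts and filters, DESeq2, a fit over all 8 libraries, blocking on the replicate number and dropping each library in turn.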

Additional observations from a re-analysis of the deposited data

Results flagged for a closer look

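Of the 39 genes named in the text, Stac2 included, 5 passed the test of the interaction of sex and CCI (edgeR, quasi-likelihood, Benjamini-Hochberg), beside 1.59% of all genes tested. Many of the 39 were named for a called change in these libraries, and Csf1 and Nts were named after their values were seen. In whole lists, 3 of 9 skeletal muscle genes and 4 of 7 Schwann cell and myelin genes passed. Atf3 rose by 0.78 more (log2FC) in females than in males (adjusted p = 0.0412). Csf1 rose by 0.64 more in females (adjusted p = 0.0496). For Casq1 the change in females minus that in males was -2.07 (adjusted p = 0.0412), with a rise in males and a fall in females. For Nts the difference was -1.71 (adjusted p = 0.0483), with a rise in males that passed the test and a log2FC in females that did not. For Lgi4, listed here with satellite glia, the difference was 0.95 (adjusted p = 0.0412). Its fall in males passed the test and its log2FC in females (-0.17) did not. The difference was 0.17 in Fabp7, of the same list, and had a median of 0.98 in the Schwann cell and myelin genes. Stac2 itself did not pass this test (adjusted p = 0.233). With each library left out in turn, the highest adjusted p was 0.165 for Atf3, 0.190 for Csf1, 0.168 for Casq1, 0.182 for Nts and 0.182 for Lgi4, and all 5 lost the call without naïve male replicate 1, either CCI male, naïve female replicate 1 or either CCI female.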

How the results depend on the processing

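With each library left out in turn, the log2 CPM change of Stac2 lay between 4.47 and 4.60 in males, between 4.80 and 5.44 in females and between 4.67 and 4.98 for the mean, and its rank lay between 11 and 15, 10 and 15, and 11 and 13. Its rank in males was 19 with a prior count of 0.5, 6 with a prior count of 5 and 2 among genes with at least 10 counts in every library. In females it was 8 and 2, and by the mean 6 and 2, under the last 2 of these settings. Relative to the pan-neuronal genes, a scaling added after seeing the data, the change was 3.88 in males and 4.42 as the mean of both sexes.

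The sex difference of Stac2 after CCI kept its call under the 6 settings that use all libraries of the comparison (adjusted p from 7.31e-13 with DESeq2 to 0.0414) and lost it without either CCI female (log2FC 0.82 and 0.87, range over left-out libraries 0.81 to 0.87). The naïve sex difference ranged from -0.0773 to 0.60 over left-out libraries, and the interaction ranged from 0.25 to 0.93. Neither was called in any setting.

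Counts over all genes moved more. Of the naïve sexes, DESeq2 called 270 higher and 732 lower, no filter 22 and 108, and a fit over all 8 libraries 213 and 693. After CCI, DESeq2 called 213 higher and 154 lower in females, and no filter called 148 higher. The interaction was called higher in 808 and lower in 777 genes by DESeq2, and in 613 and 419 without a filter. Injury genes with a called positive interaction numbered 6 with DESeq2 or no filter, and 1 with RLE or upper-quartile scaling.

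The replicate numbers were not taken to pair the rats, as the labels do not say what they mark, and the first column of either male group carries an extra letter whose meaning is not given in the sources used here (correlations of replicate differences 0.731 in males, -0.00788 in females, 0.129 in naïve and -0.0200 in CCI sexes). With the replicate number as a block, Stac2 had a log2FC of 0.84 after CCI (adjusted p = 0.0413), 0.26 in naïve rats (adjusted p = 0.721) and 0.54 for the interaction (adjusted p = 0.240). The block called 4478 genes in males (3663 without it) and 1180 in females (967 without it), 28 genes higher and 40 lower in CCI females, 4 lower in naïve females, and 1 injury gene for the interaction.

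With each library left out in turn, calls in males ranged from 0 to 1624 higher, from 0 to 2098 lower and from 0 to 18 injury genes, with 0 without CCI male replicate 1 (edgeR, smallest adjusted p 0.0502, 6494 genes with an unadjusted p under 0.05). In females they ranged from 71 to 868 higher, from 13 to 968 lower and from 15 to 17 injury genes, lowest without CCI female replicate 2. In naïve sexes they ranged from 2 to 119 higher and from 4 to 208 lower, highest without naïve male replicate 2. In CCI sexes they ranged from 4 to 492 higher, from 28 to 224 lower and from 0 to 8 injury genes, lowest for all genes without CCI female replicate 1. For the interaction they ranged from 0 to 266 higher, from 0 to 314 lower and from 0 to 3 injury genes, with 0 calls without naïve male replicate 1, CCI male replicate 2 or CCI female replicate 2 (2728, 3147 and 3887 genes with an unadjusted p under 0.05). The cause was not tested. Of 495 alternatives run for 48 values of other named genes, 392 kept the call, 103 lost it and none changed direction.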

Other observations

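Stac2 is known in mouse DRG from subsets of sensory neurons, and the markers of such subsets were measured as well. Over all genes tested, 9.05% were called higher in CCI males, and 3.69% were called higher and 2.001% lower in CCI females. Of 16 nonpeptidergic nociceptor genes 4 had an identifier, and P2rx3, an ATP-gated channel of these cells, rose in CCI males (log2FC 0.75, adjusted p = 0.00565 by edgeR's quasi-likelihood test). None of the 4 was called in females by edgeR or DESeq2, and 1 had an unadjusted p under 0.05. Their log2FC between CCI females and CCI males ranged from 0.01 to 0.19, with none called by either tool and none at an unadjusted p under 0.05. Of 10 peptidergic genes 3 had an identifier, and Calca, Calcb and Tac1, which encode the neuropeptides CGRP and substance P, all rose in CCI males (log2FC 0.91, 0.65 and 1.05). In CCI females their log2FC was 0.24, 0.08 and 0.41, with none called by edgeR or DESeq2 and 1 at an unadjusted p under 0.05. Of 14 genes of large-diameter neurons 4 had an identifier, of which Scn1a and Nefh rose in CCI males (1.15 and 0.65) and Pvalb fell in CCI females (-0.84). In CCI females Scn1a and Nefh had a log2FC of 0.29 and 0.23 and were not called. DESeq2 called the interaction of sex and CCI lower in 3 nonpeptidergic, 3 peptidergic and 4 large-diameter genes, and edgeR called it in none. The median sex difference after CCI was 0.08 in the nonpeptidergic, -0.21 in the peptidergic and -0.26 in the large-diameter genes, beside 0.84 in Stac2.

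Genes of other cells moved too. Those with an identifier were again named through the study's lists of genes called on these libraries, so their counts do not test the lists. Over all genes tested, 12.5% were called lower after CCI in males and 2.001% in females. Between the CCI sexes, 0.524% were called higher in females. Of 7 Schwann cell and myelin genes, 7 fell in CCI males (median log2FC -1.51) and 2 fell in CCI females (median -0.37), and 3 were higher in CCI females than in CCI males. Both genes of the satellite glia list with an identifier, Fabp7 and Lgi4, fell in CCI males (-0.88 and -1.11), and Fabp7 fell in CCI females (-0.73). Cd163, the macrophage marker with an identifier, was higher in CCI females than in CCI males (1.77, adjusted p = 0.0200) and was called in neither sex after CCI. Of the adipocyte genes, Adipoq and Fabp4 rose in CCI males (1.72 and 3.97) and Fabp4 was lower in CCI females than in CCI males (-1.76). The library highest in both was an uninjured one, naïve female replicate 1, with 3.87 CPM of Adipoq and 5.45 CPM of Fabp4. Naïve female replicate 2 had 0.496 and 0.591 CPM, and the CCI males had at most 1.73 and 3.44 CPM. All 5 erythrocyte genes with an identifier fell in CCI females (median -3.09) and none was called in males, by edgeR, by DESeq2 or at an unadjusted p under 0.05, where all 5 had a log2FC below 0 (median -1.72). The naïve males stood apart from each other in these genes, with 54.6 and 542 CPM of Hbb, a hemoglobin beta gene, against 104 and 77.5 CPM in the CCI males. A difference in the change between the sexes was called in none of the 5 by edgeR or DESeq2, with none at an unadjusted p under 0.05. Adipoq in males and Fabp4 between the CCI sexes were not called with edgeR fitted over all 8 libraries (adjusted p = 0.159 and 0.316). Without CCI female replicate 1 or 2, Pvalb and Fabp7 in females and Cd163 and Fabp4 between the CCI sexes lost their calls (adjusted p from 0.0739 to 0.178). Without CCI male replicate 2, Calca, Nefh and Adipoq lost theirs in males (0.0582, 0.0888 and 0.0547), and without CCI male replicate 1 no gene was called in males by edgeR (6494 at an unadjusted p under 0.05). The part of these cells in the level of Stac2 was not tested.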
